A study of Mus musculus with 6 samples.

Results

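MiR-103 and miR-107 are paralogous microRNAs (miRNAs), small RNAs that pair with messenger RNAs through their 5′ end and lower the output of those messages. They were taken here as all probes named mmu-miR-103 or mmu-miR-107 on a one-colour Agilent miRNA array, 2 of 567 mouse miRNAs and 4 of 1672 mouse probes. They were chosen by these same array values, because both had a higher signal in fetal liver than in adult bone marrow, and the difference between the tissues is therefore given as a description, without a test. Levels were read in pro-B cells (Fr. B/C), the B cell progenitors that rearrange their heavy chain genes, sorted from BALB/c mice. One group holds 3 sorts of bone marrow from adult females, with 3 mice pooled for each sort. The other holds 3 sorts of fetal liver at day 16 of gestation, each pooling the embryos of 1 pregnant mouse (8 on average). The labels name no allele, transgene or treatment in either group, and each sort was read on 1 array. The study asked which miRNAs distinguish fetal from adult B cell progenitors.

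Both miRNAs lie in introns of pantothenate kinase genes, whose enzymes carry out the first step of coenzyme A synthesis. In mouse liver and fat they are known to lower insulin sensitivity through caveolin-1, and in human cancer cells they repress Dicer, the enzyme that cuts miRNA precursors. They belong to the miR-15/miR-107 group, whose members share a short motif near the 5′ end and overlap in their targets.

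The mature sequences show how close the pair is. RefSeq (GRCm38.p6) lists mmu-miR-103-3p at 2 places, chr2:131288103-131288125 and chr11:35782447-35782469, both on the plus strand, and mmu-miR-107-3p at chr19:34820700-34820722 on the minus strand. Capitals mark the seed, bases 2 to 8, which chooses the targets.
miR-103: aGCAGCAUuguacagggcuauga
miR-107: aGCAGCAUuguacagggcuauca
The sequences agree at 22 of 23 bases and differ by the substitution G22C, counted from the 5′ end with the miR-103 base first. Of 1679 mouse mature miRNAs in the RefSeq table, these 2 share the seed and no other does. An array that reads the mature miRNA cannot tell the 2 copies of miR-103 apart, since their mature sequences are the same. MiR-103 and miR-107 differ at 1 base only, and how far a probe for one also binds the other was not tested.

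The precursors differ outside the mature part. In the hairpins below, capitals mark the mature miRNA.
Mir103-1: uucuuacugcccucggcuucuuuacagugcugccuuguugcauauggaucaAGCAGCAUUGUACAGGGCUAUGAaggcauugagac
Mir103-2: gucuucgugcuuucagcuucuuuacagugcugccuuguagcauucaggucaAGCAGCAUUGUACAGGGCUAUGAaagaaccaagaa
Mir107: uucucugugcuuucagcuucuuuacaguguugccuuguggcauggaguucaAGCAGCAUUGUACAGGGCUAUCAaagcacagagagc
Mir103-1 (chr11:35782396-35782481) lies within the span of Pank3, Mir103-2 (chr2:131288052-131288137) within Pank2 and Mir107 (chr19:34820687-34820773) within Pank1. Each lies on the strand of its host. The 5′ arms, which the array does not carry under these names, differ by 1 base between the 2 copies of miR-103 and by 1 base between Mir103-2 and Mir107.

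Each miRNA had 2 probes of 10 spots each, placed by the array files on mm9. The miR-103 probes span 18 bases (chr11:35595954-35595971) and 17 bases (chr11:35595955-35595971). The miR-107 probes span 20 bases (chr19:34895190-34895209) and 19 bases (chr19:34895190-34895208). For both miRNAs the 2 probes share an end and differ by 1 base in length, and the longer one was brighter on every array and stands for the miRNA below. A probe's brightness also depends on how well it binds, so levels of different probes are not ranked against each other.

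The 6 arrays came from 1 slide and 1 scan, per the file headers. Bone marrow arrays all sat in slide row 1 and fetal liver arrays in slide row 2, so that slide row and tissue cannot be told apart. The share of mouse spots well above background was 7.02 percent on fetal liver replicate 2 and ran from 18.4 to 23.7 percent on the other 5 arrays. No spot was saturated.

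As scanned, before any scaling between arrays, the longer miR-103 probe gave a signal of 87.9, 140 and 86.9 on bone marrow replicates 1 to 3 (intensity, mean over spots). On fetal liver replicates 1 to 3 it gave 105, 76.8 and 213. The tissues overlap on this scale: fetal liver replicate 2 had the lowest value of all 6 arrays, and bone marrow replicate 2 lay above both fetal liver replicates 1 and 2. The longer miR-107 probe gave 118, 177 and 106.8 on the bone marrow arrays and 113, 90.1 and 244 on the fetal liver arrays, in the same pattern. Within an array the spots of these probes had a coefficient of variation between 3.42 and 8.99 percent, so the spread between arrays was far wider than the spread between spots.

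Arrays were then scaled by the 75th percentile of 82 probes that stood well above background on every array. The factors were 0.898, 0.614 and 0.990 for bone marrow replicates 1 to 3 and 1.55, 1.81 and 0.953 for fetal liver replicates 1 to 3. Scaling brought the bone marrow arrays together, mainly by lowering replicate 2, and raised fetal liver replicates 1 and 2 above them. Fetal liver replicate 3 was the highest array before scaling and was lowered slightly. Scaled signals of miR-103 were 78.9, 85.9 and 86.0 in bone marrow against 162, 139 and 203 in fetal liver. For miR-107 they were 106, 109 and 106 in bone marrow against 175, 163 and 232 in fetal liver. On this scale the lowest fetal liver array lay above the highest bone marrow array for both miRNAs.

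**Figure D1:**
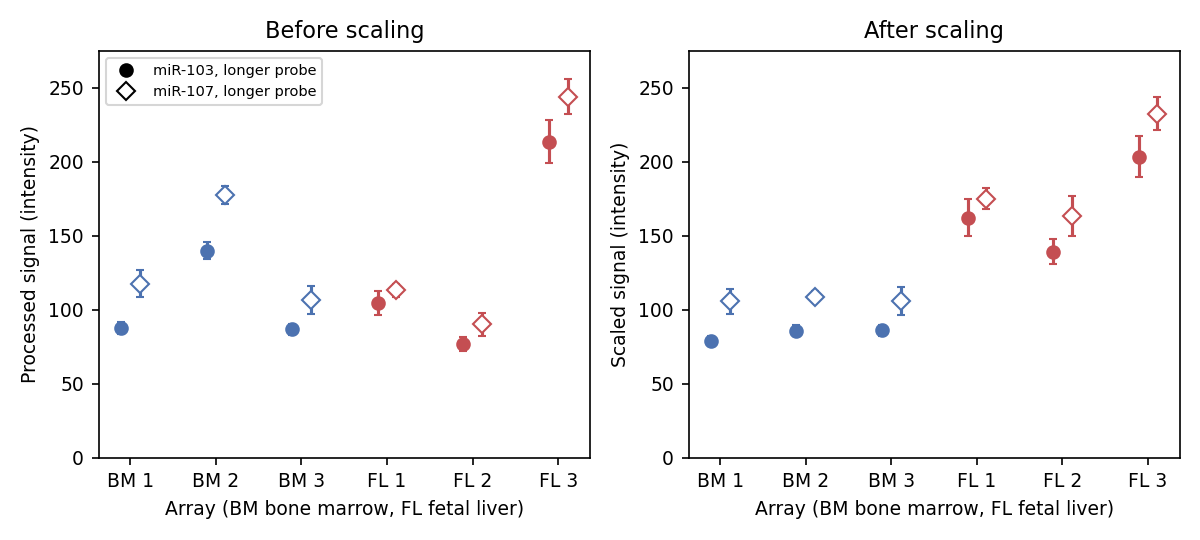
Signal of the longer probe of miR-103 (filled circles) and miR-107 (open diamonds) on each array, before scaling on the left and after scaling on the right, both as linear intensity. Points are means over spots and bars are the SD over spots. The tissues overlap on the left, where fetal liver replicate 2 is the lowest array for both, and separate on the right.

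On the log2 scale miR-103 averaged 6.38 ± 0.07 in bone marrow and reached 7.38 ± 0.28 in fetal liver (SD, n = 3 arrays each), a difference of 0.99, or 1.99-fold. MiR-107 averaged 6.74 ± 0.02 in bone marrow and reached 7.55 ± 0.27 in fetal liver, a difference of 0.82, or 1.76-fold. Fetal liver arrays spread more widely than bone marrow arrays for both, with replicate 3 highest and replicate 2 lowest. In bulk samples, a change in the makeup of the sorted cells and a change in RNA per cell cannot be told apart.

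The limma fit (lmFit and eBayes) over all 135 miRNAs well above background on all 3 arrays of a tissue called 29 at a Benjamini-Hochberg adjusted p under 0.05, of which 14 were higher in fetal liver. These 14 are 10.4 percent of those tested, and both miRNAs were among them, which is how they were chosen. On the array, 135 miRNAs were well above background on all bone marrow arrays and 53 on all fetal liver arrays. The filter thus let in miRNAs low in fetal liver through bone marrow alone, which favours lower calls. Groups did not overlap, with fetal liver higher, for both miRNAs and for 22.2 percent of the tested miRNAs (40.7 percent counting either direction). In the order of differences from the highest, miR-103 stood 18th and miR-107 27th of 135.

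The scaling set the size of both differences. They were 0.23 for miR-103 and 0.053 for miR-107 without scaling, and 0.67 and 0.49 with the 75th percentile taken over all mouse probes. In both of these settings the tissues overlapped. The median over detected probes gave 0.80 and 0.62, quantile normalisation 0.95 and 0.87, and the authors' deposited table, whose log2 values share 1 distribution, 0.79 and 0.74. In these 3 settings fetal liver lay above bone marrow on all arrays. The fit called both miRNAs under quantile normalisation and in the deposited table, and neither under the other 3 scalings.

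The median difference over the 135 tested miRNAs moved along with them. It was 0.25 in the main setting, -0.50 without scaling, -0.063 over all mouse probes, 0.063 with the median, 0.035 under quantile normalisation and 0.017 for the deposited table. Set against that median, miR-103 was higher by 0.74 in the main setting and by 0.73, 0.73 and 0.74 under the other 3 settings that multiply each array by 1 factor. MiR-107 was higher by 0.57 in the main setting and by 0.56 in each of these 3. This near constancy follows from the arithmetic, because 1 factor per array shifts every miRNA off the floor equally. Quantile normalisation and the deposited table, which are not of that kind, gave 0.91 and 0.78 for miR-103 and 0.83 and 0.72 for miR-107. The position of miR-103 in the order of differences ran from 11 to 20, and that of miR-107 from 12 to 30, over the main setting and these 5 scalings.

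**Figure D2:**
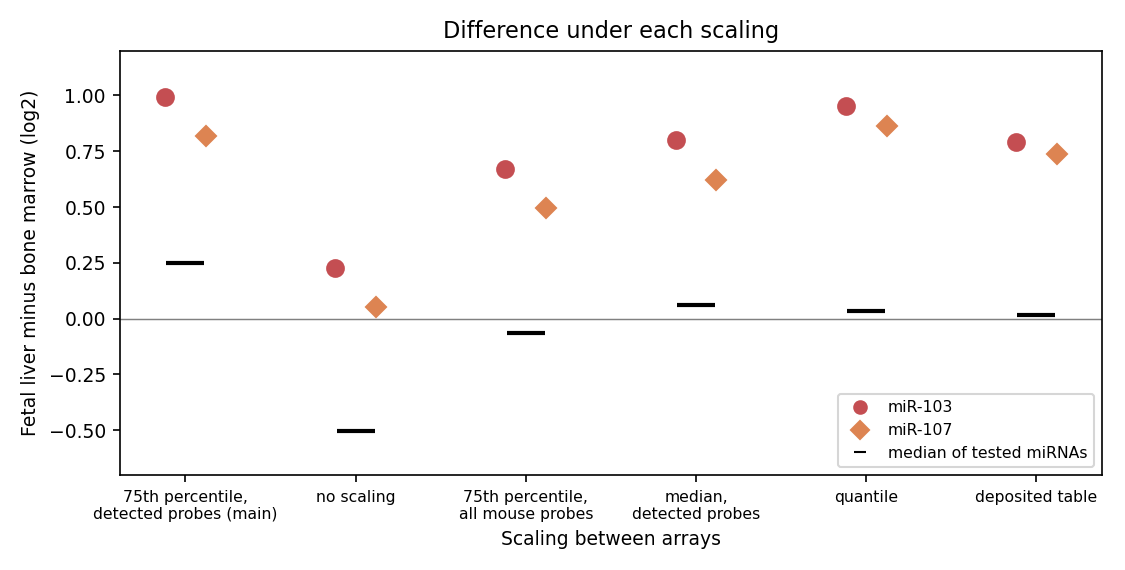
Difference of miR-103 (circles) and miR-107 (diamonds) between fetal liver and bone marrow on the log2 scale under 6 scalings, with the median over the 135 tested miRNAs as a black bar. Without scaling both miRNAs and the median are lowest, and in each setting both miRNAs lie above the median.

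The shorter probes gave a second reading of each miRNA. The 17-base miR-103 probe had 4.45, 4.37 and 4.62 in bone marrow (log2 scaled signal) and 5.27, 4.04 and 5.82 in fetal liver. The 19-base miR-107 probe read 5.0, 4.93 and 4.91 across bone marrow and 5.64, 4.21 and 6.06 in fetal liver. All spots of both probes were well above background on 5 arrays, and 0 of 10 were on fetal liver replicate 2.

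On that array the signal of the miR-103 probe was 6.37 before scaling, against an SD of 10.3 over negative control spots, and the lowest signal well above background was 58.7. The reading of the shorter probes there is therefore a value at or near the floor of 4.04, which was set for all arrays, and with it the tissues overlap on both shorter probes. Over all 6 arrays the shorter probes differed by 0.56 for miR-103 and 0.35 for miR-107, below the longer ones. With fetal liver replicate 2 left out, a choice made after seeing the data, they differed by 1.07 and 0.90, against 1.12 and 0.92 for the longer probes on the same 5 arrays. Apart from that array, the 2 probes of each miRNA gave nearly the same difference.

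**Figure D3:**
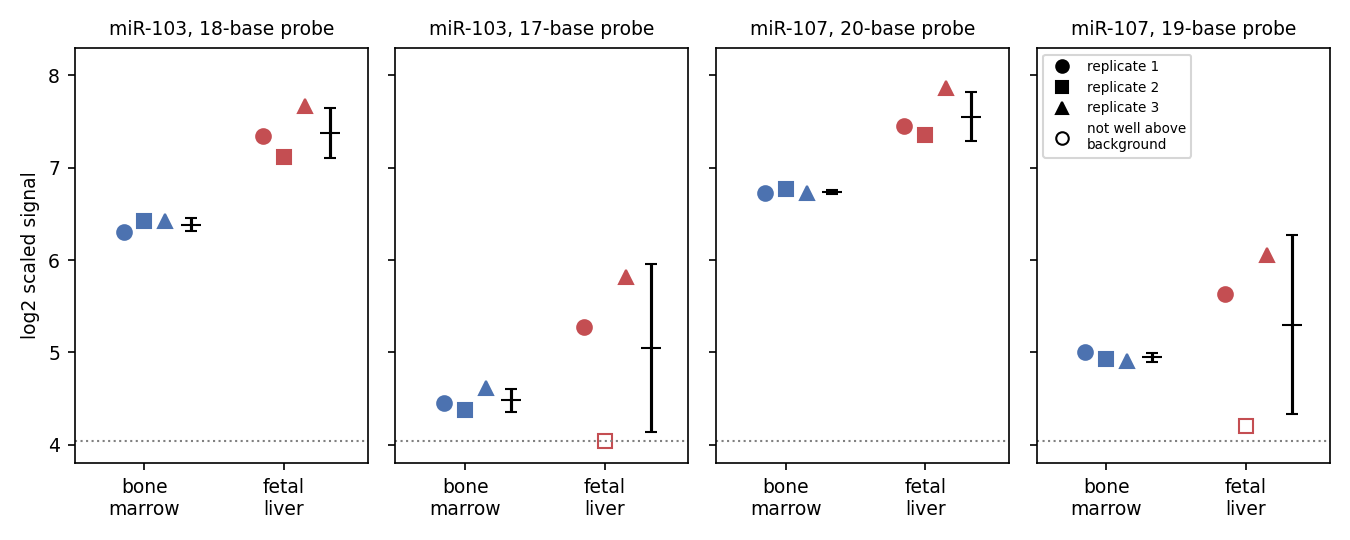
Log2 scaled signal of the 4 probes on each array, bone marrow in blue and fetal liver in red, with replicates by marker shape, mean and SD in black, and the common floor as a dotted line. Open symbols mark fetal liver replicate 2 on the shorter probes, where no spot was well above background.

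The gap between the paralogs was a little smaller in fetal liver. The log2 signal of miR-107 minus that of miR-103 on the longer probes was 0.42, 0.34 and 0.30 on bone marrow replicates 1 to 3 and 0.11, 0.23 and 0.19 on fetal liver replicates 1 to 3. The groups do not overlap, as was so for 40.7 percent of single tested miRNAs in either direction, and no share over other pairs was computed. The error of each value from the spots lay between 0.026 and 0.051 (SE). It is an error within an array and does not measure the spread between sorts. The mean went from 0.35 ± 0.06 to 0.18 ± 0.06 (SD, n = 3 each), a shift of -0.18, and no factor applied to a whole array can change it. Only the shift can be read, since the offset between the probes carries their binding.

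On the shorter probes the gap was 0.55, 0.55 and 0.29 in bone marrow and 0.36 and 0.24 on fetal liver replicates 1 and 3. The shift there was -0.16, but bone marrow replicate 3 lay between both fetal liver values, so the tissues overlap. The shift was nearer 0 under quantile normalisation (-0.085), normexp background correction (-0.074) and in the deposited table (-0.055).

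**Figure D4:**
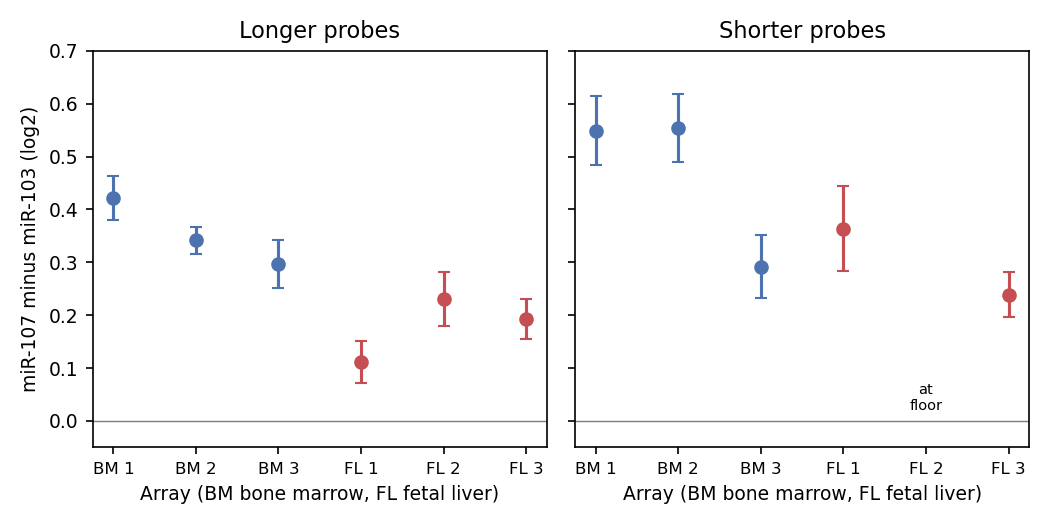
Log2 signal of miR-107 minus that of miR-103 on each array, for the longer probes on the left and the shorter probes on the right, with bars for the standard error from the spots. The tissues separate on the longer probes and overlap on the shorter ones, where fetal liver replicate 2 has no value because of the floor.

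Among all tested miRNAs, the level over the 6 arrays most like that of miR-103 was the level of miR-107, and the reverse held too (Pearson's r = 0.99, over arrays that share the scaling and fall into 2 tissues). After miR-107, the 5 miRNAs most like miR-103 were miR-301b (0.99), miR-18a (0.97), miR-93 (0.96), miR-451 (0.93) and miR-20a (0.93). After miR-103, those most like miR-107 were miR-18a (0.99), miR-93 (0.97), miR-301b (0.97), miR-20a (0.97) and miR-20b (0.95). MiR-18a and miR-20a are encoded in the miR-17 polycistron, and miR-93 and miR-20b in its paralogous clusters. MiR-301b was at the floor on every bone marrow array, so its r rests on the fetal liver values and that step.

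These values include the step between tissues. Taken as deviations from the tissue means, miR-103 and miR-107 still had r = 0.95 with each other, second highest of 134 for either. Such values were not particular to the pair. Of the 134 other tested miRNAs, 8 had r above 0.9 with miR-103 and 10 with miR-107, counting the other member. On the same measure the miRNAs named beside miR-103 had 0.87 (miR-301b), 0.77 (miR-18a), 0.80 (miR-93), 0.69 (miR-20a) and 0.19 (miR-451). Those named beside miR-107 had 0.92 (miR-18a), 0.86 (miR-93), 0.77 (miR-301b), 0.88 (miR-20a) and 0.87 (miR-20b), so miR-451 was the one whose likeness was low within tissues. The deviations of miR-103 were -0.036, -0.26 and 0.29 on fetal liver replicates 1 to 3 and those of miR-107 -0.10, -0.20 and 0.31, so the likeness within tissues rests on the fetal liver arrays. The part of binding between each probe and the other miRNA in this likeness was not tested.

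Other miRNAs that differ by few bases did not all change alike. Of 56 tested miRNAs matched to a RefSeq mature sequence, 24 pairs of equal length had at most 2 mismatches. Many of these pairs share members of the let-7 family, and some hold a value at the floor, so the pairs are not independent. The differences of miR-103 and miR-107 lay 0.18 apart, a gap that ranked 4 of 24 from the smallest. Closer were miR-106a and miR-17 (0.25 and 0.36, both with a value at the floor) and let-7a and let-7e (-0.79 and -0.64, 1 of them with a value at the floor). So were miR-20a and miR-20b, with 2 mismatches (0.80 and 0.69). Among pairs with 1 mismatch, miR-27a and miR-27b had 0.24 and 0.040, and miR-19a and miR-19b had 0.86 and 0.59. Let-7a and let-7c, also 1 base apart, had -0.79 and -3.35.

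The other members of the miR-15/miR-107 group carry the motif AGCAGC from base 2, whereas it starts at base 1 in miR-103 and miR-107, which shifts the seed by 1 base. Of the 1679 mature miRNAs in the RefSeq table, 0.774 percent hold this motif from base 1 or 2. Capitals mark it below in the members well above background on all bone marrow arrays.
miR-15a: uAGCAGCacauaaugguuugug
miR-15b: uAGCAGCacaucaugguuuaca
miR-16: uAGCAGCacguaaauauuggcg
miR-195: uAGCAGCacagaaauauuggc
miR-322: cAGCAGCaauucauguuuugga
MiR-15a and miR-16 restrain cell cycle genes and Bcl2.

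Of 7 such members on the array, 5 were tested and 0 were called by limma with Benjamini-Hochberg adjustment, with 0 at an unadjusted p under 0.05. Over all 135 tested miRNAs 21.5 percent were called in either direction and 44 had an unadjusted p under 0.05. Their median difference was -0.037, against 0.25 over all tested miRNAs. MiR-15b averaged 10.64 ± 0.09 in bone marrow against 10.69 ± 0.10 in fetal liver, and miR-16 had 9.67 ± 0.05 and 9.63 ± 0.12 (log2, SD, n = 3 each). MiR-15a differed by -0.40 ± 0.24 (SE) and miR-322 by 0.19 ± 0.31. MiR-195 differed by -0.49 ± 0.21, with 2 of 3 fetal liver arrays at the floor. Under each of the 5 other scalings all 5 members had a negative difference. MiR-195 was called under quantile normalisation (-0.75, limma adjusted p = 0.0385, with 0.0385 to 1 over the alternatives), and miR-15b on its second probe (0.28, limma, adjusted p = 0.0218, with 0.0218 to 0.997 over the alternatives). MiR-497 and miR-503 were at the floor on all arrays and were not tested.

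**Figure D5:**
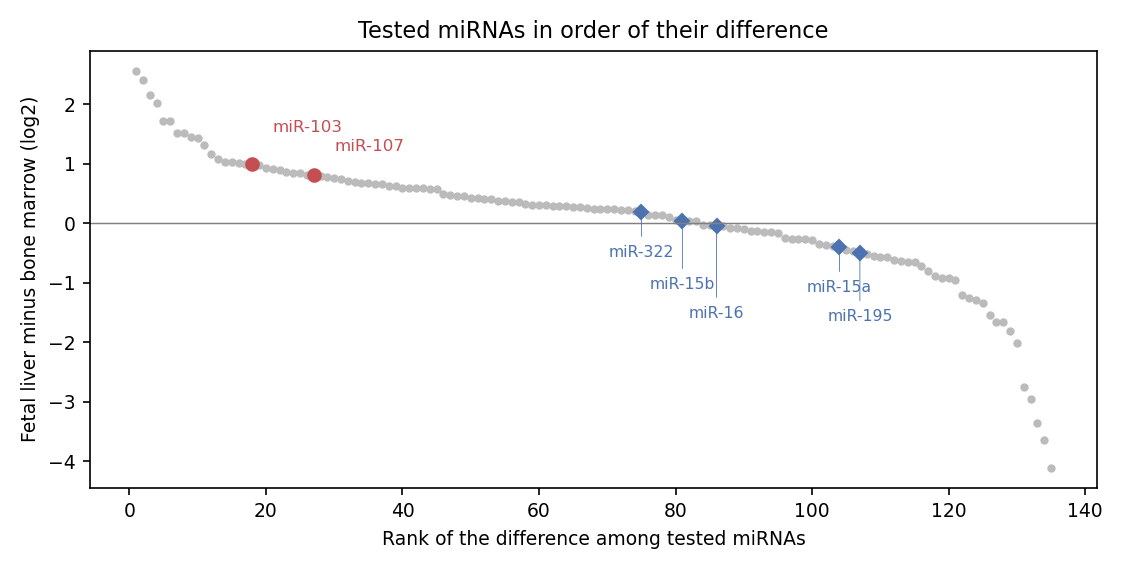
The 135 tested miRNAs in order of their difference between fetal liver and bone marrow (log2), with miR-103 and miR-107 in red and the other tested members of the miR-15/miR-107 group in blue. Both red points lie in the upper part of the order, and the blue points run from 0.19 for miR-322 to -0.49 for miR-195.

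Other miRNAs known to lie in introns of protein-coding genes gave a comparison by position. Of 34 on the array, 17 were tested, 1 was called higher and 0 lower in fetal liver by limma with Benjamini-Hochberg adjustment, and 4 had an unadjusted p under 0.05. That is next to 10.4 percent called higher and 11.1 percent called lower among all 135 tested miRNAs. Of these 135, 44 had an unadjusted p under 0.05. The list median was -0.028, against 0.25 over all tested miRNAs. The one called was miR-301a, which lies in Ska2, with 6.73, 5.79 and 6.28 in bone marrow and 7.98, 7.42 and 7.97 in fetal liver (log2 difference 1.52 ± 0.31 SE, limma adjusted p = 0.0135, with 0.00166 to 0.473 over the alternatives). Named after their values were seen, miR-26a and miR-26b, which lie in phosphatase genes of the Ctdsp family, had differences of -0.35 ± 0.23 and -0.36 ± 0.25 (SE), both not called.

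Some markers of other cell types also differed between the tissues on the same arrays. Of the erythroid markers, miR-451 rose from 6.75 ± 0.43 to 9.16 ± 0.36 (log2, SD, n = 3 each, limma adjusted p = 0.00253, with 3.2e-04 to 0.0597 over the alternatives). MiR-486 stayed at the floor in bone marrow and had 5.90, 5.95 and 4.65 on fetal liver replicates 1 to 3 (5.50 ± 0.74). On replicate 2 its reading lay below the lowest scaled signal well above background on that array (106 as linear intensity). MiR-486 was well above background on 2 arrays of each tissue, so its detected bone marrow signal lay at or below the floor. MiR-144 was at the floor throughout. The summed scaled signal of these 3 ran from 100.1 to 170.01 in bone marrow and from 516 to 773 in fetal liver. The summed scaled signal of the 4 myeloid markers ran from 410.2 to 747 in bone marrow and from 74.1 to 164 in fetal liver. Of these, miR-223 and miR-146a were tested and called lower (log2 differences -2.004 and -3.637), where 11.1 percent of all tested miRNAs were called lower. The other myeloid markers were not tested: miR-146b was at the floor throughout, and miR-511 averaged 4.04, the floor, in bone marrow. In fetal liver miR-511 read 4.62, 6.14 and 4.04 on replicates 1 to 3, a mean of 4.93 carried by replicate 2. There too its reading lay below the lowest scaled signal detected on that array (106 as linear intensity). Detection of miR-511 held for 2 arrays in bone marrow and 1 in fetal liver, so no rise was read from these means. Among hepatocyte markers miR-192 and miR-194 were at the floor on all arrays and miR-122 stood above background in 1 fetal liver sort. Of 4 stromal and endothelial markers miR-143, miR-145 and miR-214 were at the floor on all arrays and miR-126-3p had a difference of -0.15. Of 4 stem and progenitor markers 2 were called lower (miR-125b-5p and miR-99a), again next to 11.1 percent of all tested. Both were well above background on 3 bone marrow and 0 fetal liver arrays, and miR-146a on 3 and 1. These, miR-223 and miR-181a entered the test only through bone marrow, where they were high, so the filter favoured such calls. All 7 lymphoid markers were tested, with miR-181a called lower (difference -1.25, 1 of 7, near that background) and the list median at 0.14. Not called were miR-342-3p (0.98), miR-142-3p (0.42), miR-155 (0.28) and miR-181b (0.14). Nor were miR-142-5p (-0.46) and miR-150 (-0.92), the latter at the floor on 1 fetal liver array. The part of these cell types in the values of miR-103 and miR-107 was not tested.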

How the data were processed

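Per the labels' protocols, TRIzol was used to extract RNA, of which 100 ng was dephosphorylated and end-labelled with Cy3. Per the file headers, the deposited intensities came from Agilent Feature Extraction 9.5.3.1, with the processed signal background-subtracted within each array. Its flags of 0 or 1, such as well above background, are other values in the deposited files. The authors also deposited log2 values per spot, with a processing not given in the sources used here.

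Spots were averaged per probe without outlier flags. Arrays were scaled by the 75th percentile over 82 probes well above background on all 6 arrays (in more than 50 percent of spots), floored at 16.5 (the 5th percentile of detected signals, as a median across arrays) and put on the log2 scale. The brightest probe stood for a miRNA. Tests used limma 3.58.1 in R 4.3.3, which was tested on simulated data. The number of arrays limits the precision, and p-values measure the spread between sorts.

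The members, lists and tests were chosen with earlier results of these data known. Named were the members, the miR-15/107 group, the called intronic miRNAs, the 5 miRNAs most like each member, the 8 nearest-identical pairs of highest level (some given as examples) and the cell type markers. The pair miR-20a and miR-20b was named after its values were seen. Alternatives covered other scalings, background correction, probes, floors, filters, models and arrays left out. Older array names were matched to RefSeq arms by hand.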

Additional observations from a re-analysis of the deposited data

How the results depend on the processing

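Both differences stayed above 0 in all 21 alternatives in which they were computed, though both miRNAs were chosen for a higher signal in fetal liver. The other floors, the replicate block and the intensity trend cannot move these differences and left them at 0.99 and 0.82. Beside the scalings in the report (unscaled, 0.23 and 0.053; all mouse probes, 0.67 and 0.49; median, 0.80 and 0.62), normexp gave 0.65 for miR-103 and 0.58 for miR-107, the mean of all probes 0.78 and 0.59, and the second probe 0.56 and 0.35. With 1 array left out they ran from 0.85 to 1.12 and from 0.66 to 0.92. The difference of miR-107 minus that of miR-103 stayed below 0 in all 20 alternatives, from -0.20 to -0.14 with 1 array left out, and moved to -0.085 (quantile), -0.055 (deposited table) and -0.074 (normexp). Of the 20, scalings by 1 factor per array, the other floors, the replicate block and the intensity trend cannot change it and left it at -0.18. Of 22 alternative fits, 10 called miR-103 and 8 called miR-107. The miR-15/miR-107 group median was -0.80 unscaled and -0.36 when scaled by all mouse probes, and -0.087 to 0.030 with 1 array left out. The intronic median was -0.54 without scaling, and -0.13 to 0.25 with 1 array left out.

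The main setting gave 29 calls (14 higher, 15 lower), normexp 9 (2 and 7), the second probe 13 (5 and 8), detection on all 6 arrays 18 (5 lower) and no detection filter 12 (3 and 9). These are counts, not shared miRNAs. Higher calls numbered 4 unscaled, 6 when scaled by all mouse probes, 9 by the median, 6 with the mean of all probes and 7 with total gene signal. With 1 array left out the calls ran from 14 (without bone marrow replicate 3) to 42 (without fetal liver replicate 3), 4 to 27 higher and 10 to 18 lower. They were 19 and 15 without bone marrow replicates 1 and 2. With the replicate number as a block, 23 were called, and miR-103 and miR-107 kept 0.99 and 0.82 but were not among them. Samples of the same number had deviations that correlated at 0.17, -0.12 and -0.24 over 135 miRNAs, so the numbers were not taken as pairs. The cause of these changes was not tested. Low signal over background limits fetal liver replicate 2.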
